A study of Homo sapiens with 12 samples.

Results

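The numbered zinc finger genes of chromosome 19 were examined for H3K4me2, a histone mark of promoters and enhancers, at their start sites and along their bodies. They are the protein-coding genes of GENCODE release 44 (GRCh38) on chromosome 19 whose symbol is ZNF followed by digits only. The rule found 240 genes, 1.20% of the 19970 protein-coding genes on the chromosomes of the peak lists, and 1236 other protein-coding genes lie on the same chromosome. The mark was mapped by ChIP-seq in U-937 cells, a human line of monocytic character that the labels give as acute myeloid leukaemia. The cells were kept for 24 hours in the vehicle DMSO, in 0.1 µM all-trans retinoic acid (ATRA), in 0.1 µM Corin, or in both drugs at 0.1 µM each. Corin is a synthetic inhibitor that joins a blocker of the H3K4 demethylase LSD1 to a blocker of the histone deacetylases of the CoREST complex. Each treatment had 2 H3K4me2 libraries and 1 input library, and its libraries are represented by 1 deposited list of peaks. No value per replicate was used, so the spread between replicates is unknown, no test across treatments was made, and every difference below is one between these 4 lists. Ranges in parentheses after a share are 95% Wilson intervals, which hold the counting error alone. Where 4 values stand in a row they follow the order DMSO, ATRA, Corin and ATRA+Corin, and the last is called the combination.

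Most zinc finger genes of chromosome 19 encode KRAB zinc finger proteins, which bind DNA through a row of C2H2 fingers and recruit the co-repressor TRIM28 through the KRAB domain. TRIM28 in turn brings the H3K9 methyltransferase SETDB1 and HP1 proteins, and many targets of these repressors are retrotransposons. The genes arose largely by tandem duplication and stand in clusters along the chromosome. The fingers are usually encoded by the last exon, and this 3′ part of many family members is known to carry H3K9me3 itself. Corin targets enzymes that act on H3K4 methylation and histone acetylation, and LSD1 removes the mono- and dimethyl forms of H3K4.

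The promoters of 4 members are shown as examples of the states met below, and their CG counts need not be typical of those states. Each runs from 250 bases before to 50 bases after the RefSeq start (GRCh38.p14), 5′ to 3′ along the gene, with CG dinucleotides in capitals. ZNF808 (chr19:52527418-52527717, plus strand, 29 CG) had its start site under a peak in all 4 lists. ZNF225 (chr19:44113149-44113448, plus strand, 15 CG) was covered in the DMSO and ATRA lists only. ZNF430 (chr19:21020407-21020706, plus strand, 13 CG) was covered in the DMSO list only. The 15 members with a promoter sequence that were covered with DMSO and in neither list with Corin held a median of 20 CG (quartiles 16 and 22). ZNF91 (chr19:23395422-23395721, minus strand, 11 CG) had no peak near it in any list.
ZNF808: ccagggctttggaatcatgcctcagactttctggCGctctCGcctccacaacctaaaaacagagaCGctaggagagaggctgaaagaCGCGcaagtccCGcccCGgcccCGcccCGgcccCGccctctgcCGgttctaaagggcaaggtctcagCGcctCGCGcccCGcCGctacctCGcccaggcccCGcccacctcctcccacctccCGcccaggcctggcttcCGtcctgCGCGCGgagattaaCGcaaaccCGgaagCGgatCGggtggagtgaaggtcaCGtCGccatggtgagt
ZNF225: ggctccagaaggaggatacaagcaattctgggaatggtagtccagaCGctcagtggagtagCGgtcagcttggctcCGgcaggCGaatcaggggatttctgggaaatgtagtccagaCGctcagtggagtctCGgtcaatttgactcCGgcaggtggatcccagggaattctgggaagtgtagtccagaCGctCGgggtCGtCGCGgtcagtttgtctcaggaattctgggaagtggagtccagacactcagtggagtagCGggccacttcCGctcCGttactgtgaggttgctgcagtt
ZNF430: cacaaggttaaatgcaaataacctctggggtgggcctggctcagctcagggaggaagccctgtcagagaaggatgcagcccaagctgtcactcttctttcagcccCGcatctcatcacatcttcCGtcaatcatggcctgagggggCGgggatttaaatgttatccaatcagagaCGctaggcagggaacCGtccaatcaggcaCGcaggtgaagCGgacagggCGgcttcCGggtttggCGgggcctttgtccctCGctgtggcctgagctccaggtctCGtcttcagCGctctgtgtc
ZNF91: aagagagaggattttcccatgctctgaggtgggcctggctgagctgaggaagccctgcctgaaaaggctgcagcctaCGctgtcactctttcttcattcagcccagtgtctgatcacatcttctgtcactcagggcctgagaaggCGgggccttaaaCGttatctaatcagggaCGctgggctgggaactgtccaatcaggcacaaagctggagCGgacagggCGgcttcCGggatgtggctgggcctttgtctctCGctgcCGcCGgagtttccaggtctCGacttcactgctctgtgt

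The lists held 65172, 66385, 73997 and 83969 peaks, with median widths of 741, 870, 872 and 848 bp. The lists do not give the depth of a library. The part that peak width and depth have in the results below was not tested. With the same number of peaks taken from every list, cover of the start site was lost against DMSO at 33 members with Corin and 36 with the combination, beside 33 and 35 with the full lists. No pair of neighbouring peaks in any list was less than 102 bp apart. Of 10 myeloid marker genes, 9 had a DMSO peak within 1 kb of the start site, including SPI1, LYZ, CD33 and ITGB2, and MPO had none. None of the 5 T cell markers had one, and of 3 erythroid markers KLF1 did.

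At the level of whole promoters the zinc finger genes fell into marked and unmarked genes, and this division was nearly the same in every list. A peak lay within 1 kb of the start site of 141 of 240 members with DMSO (58.8%, 52.4 to 64.8%), and of 142, 141 and 139 members in the drug lists. The same 139 members were marked in all 4 lists (57.9%), and the same 97 members were marked in none (40.4%). The division was much alike in all protein-coding genes, with 60.3% marked in all 4 lists and 36.9% in none. Over all protein-coding genes the DMSO share was 61.3%, over the other genes of chromosome 19 it was 64.3%, and over the 236 ZNF-numbered genes of other chromosomes it was 76.3% (70.4 to 81.3%). Against DMSO, ATRA gained such a peak at 2 members and lost it at 1, where 0.696% and 0.536% of all genes were called. Corin gained 1 and lost 1, where 0.826% and 0.661% of all genes were called. The combination gained none and lost 2, where 1.44% and 0.491% of all genes were called. Against ATRA alone the combination gained none and lost 3, where 1.21% and 0.421% of all genes were called, and the list with both drugs lacked it at 2 members that had it with Corin and added none, where 0.300% and 1.08% of all genes were called. With so few members changed, none of these counts can be set apart from the shares over all genes.

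**Figure D1:**
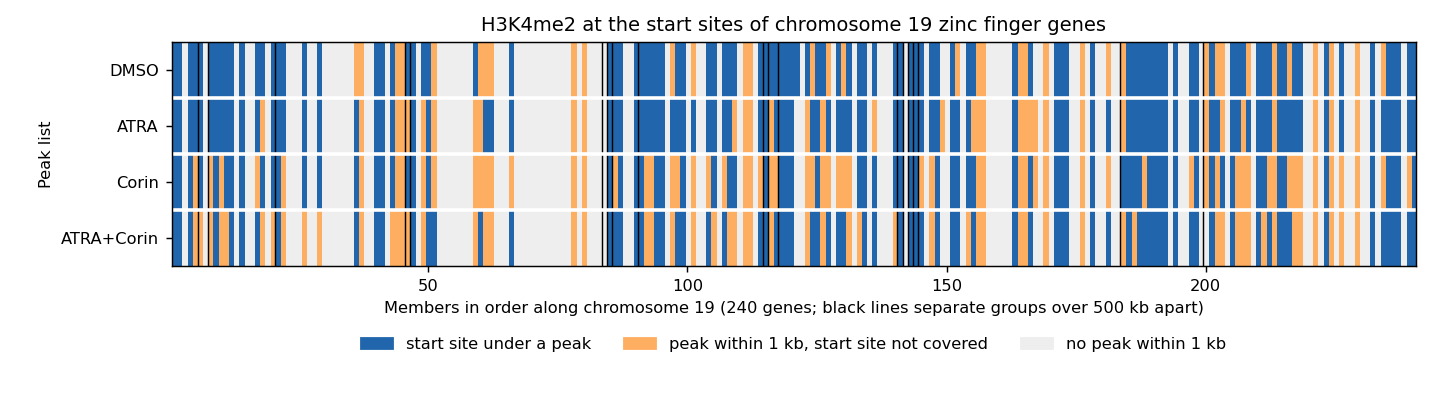
Each column is 1 of the 240 members in order along chromosome 19 and each row is 1 peak list; blue marks a start site under a peak, orange a peak within 1 kb that leaves the start site uncovered, and grey no peak within 1 kb. Grey columns run through all 4 rows for 97 members, whereas blue turns to orange more often in the rows of the lists with Corin.

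Only 4 members changed between marked and unmarked, and all of their peaks were weak beside the median −log10 q of 59.4 for the strongest DMSO peak of the 139 marked members. ZNF283 (19:43827321-43852017, plus strand) had a DMSO peak of 236 bp over its start site with the authors' −log10 q at 6.16, and the nearest peaks of the 3 drug lists lay at -41867, -33551 and -17410 bp from it. ZNF264 (19:57191500-57222846, plus strand) had a peak starting 123, 313 and 251 bp downstream in the first 3 lists, with −log10 q of 8.27, 4.33 and 5.11, and its nearest combination peak lay 41841 bp away. Both genes were thus unmarked with the combination. ZNF600 (19:52749942-52786807, minus strand) had a peak within 1 kb only with ATRA, at a −log10 q of 1.41, and with Corin, at 7.17. ZNF350 (19:51964340-51986856, minus strand) was marked in the ATRA list only, with a −log10 q of 1.58.

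Marked and unmarked members were not spread evenly along the chromosome. Joining members whose start sites lay within 500 kb of the next gave 10 groups of 5 or more genes, which held 228 members, and 10 smaller groups with 12 members. In the group from ZNF101 to ZNF254, with start sites from 19:19668839 to 19:24087187, a DMSO peak lay within 1 kb of 11 of 37 start sites (29.7%, 17.5 to 45.8%), and 26 members were unmarked in all lists. This group held the longest run of unmarked neighbours, 11 genes from ZNF43 to ZNF730. In the group from ZNF653 to ZNF791, 11 of 25 members were marked in the DMSO list, and in that from ZNF175 to ZNF331, 20 of 39. The shares were higher in the group from ZNF264 to ZNF446, where 29 of 41 members were marked (70.7%, 55.5 to 82.4%), and in the group from ZNF565 to ZNF573, with 17 of 24. The group from ZNF628 to ZNF835 had 12 of 16 marked members and the longest run of neighbours marked in all lists, 9 genes from ZNF628 to ZNF444. Neighbours can share regulation and sequence, and 33 members had another protein-coding start site within 1 kb, in 8 cases that of another member.

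**Figure D2:**
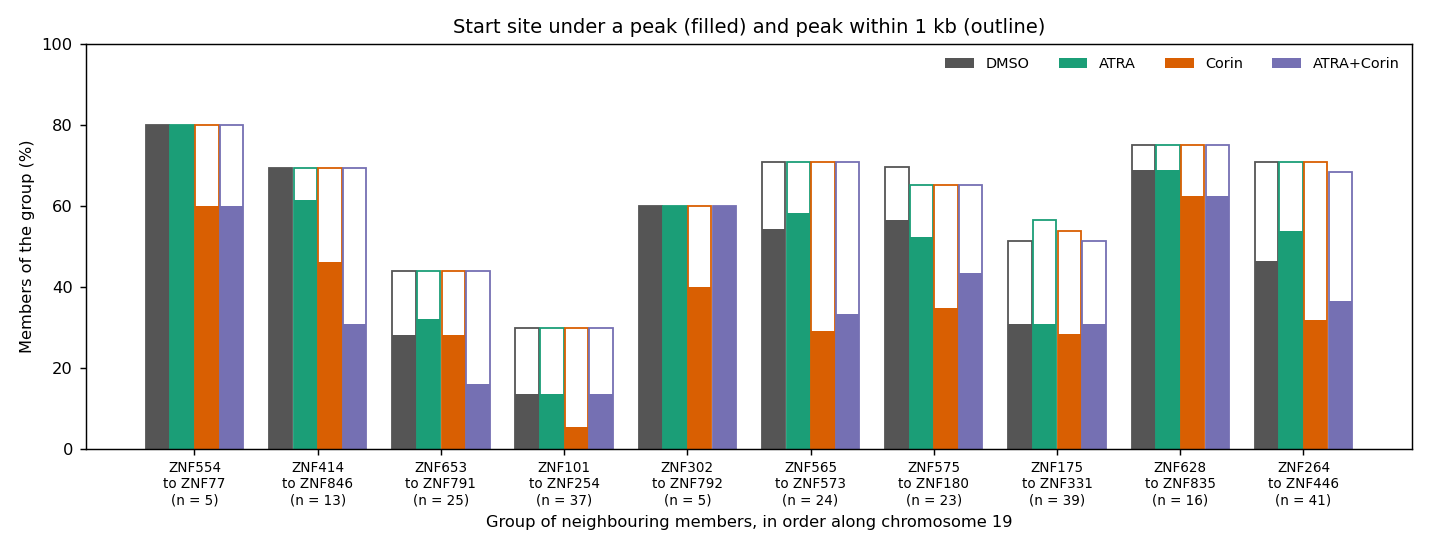
Bars give the percentage of members in each of the 10 groups of 5 or more neighbours, filled where the start site is under a peak and outlined where a peak lies within 1 kb, for the 4 lists. Outlines keep nearly the same height across the lists of a group, from 29.7% in the group from ZNF101 to ZNF254 to 80.0% in the group from ZNF554 to ZNF77, whereas the filled part is lower for Corin than for DMSO in every group but that from ZNF653 to ZNF791.

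The marked promoters held more CG dinucleotides than the unmarked ones. RefSeq windows starting within 50 bp of the GENCODE start were found for 208 members. The median window held 23 CG (quartiles 18 and 27.8) for the 122 matched members marked in all lists and 16 CG (11.5 and 22) for the 83 matched members unmarked in all lists. The ranges overlapped, from 9 to 40 CG in marked and from 2 to 49 in unmarked members. Of members with under 10 CG, 1 of 14 had a DMSO peak within 1 kb (7.14%, 1.27 to 31.5%), of those with 10 to 19 CG 39 of 77 (50.6%), of those with 20 to 29 CG 61 of 87 (70.1%), and of those with 30 or more 23 of 30 (76.7%, 59.1 to 88.2%). The same order was seen over 14616 protein-coding genes with a matched window, at 20.0%, 59.9%, 80.1% and 82.2%. Motifs were searched on both strands in the same windows. CCAAT was in 57 of 122 marked and 53 of 83 unmarked members, in 37.0% of the 14616 matched protein-coding windows and in 34.6% of all 35116 windows. GGGCGG was in 85 of 122 marked and 61 of 83 unmarked members, in 62.6% of the protein-coding windows and in 45.0% of all windows. The cyclic AMP response palindrome TGACGTCA was in 9 of the 208 members (4.33%) and the YY1 motif GCCATNTTG in 10 (4.81%), compared with 2.85% and 4.37% of the protein-coding windows and 1.85% and 2.92% of all windows. The NRF1 palindrome was in 6 members (2.88%), the ZNF143 motif in 3 (1.44%) and the palindrome bound by KAISO in 2 (0.962%), compared with 1.81%, 0.431% and 0.712% of the protein-coding windows and 1.24%, 0.231% and 0.424% of all windows. The direct repeat of the retinoid receptors was in none of the 208 windows and in 2 of all windows. A match of letters is no evidence of binding, and the absence of one says only that these letters are not in the window.

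The start site itself differed between the lists with and without Corin. It lay under a peak in 105 of 240 members with DMSO (43.8%, 37.6 to 50.1%) and in 106 with ATRA (44.2%, 38.0 to 50.5%). With Corin it was covered in 76 members (31.7%, 26.1 to 37.8%), and with the combination in 80 (33.3%, 27.7 to 39.5%). The shares of all protein-coding genes were 47.3%, 48.1%, 38.0% and 38.0%. Both lists with Corin thus had fewer covered start sites, in the members and in all genes, at nearly the same number of marked promoters. Of members with a peak within 1 kb, 74.5%, 74.6%, 53.9% and 57.6% had it over the start site, and of all protein-coding genes 77.1%, 78.2%, 61.8% and 61.1%. Members with 2 or more peaks within 1 kb numbered 49, 45, 77 and 73 (20.4%, 18.8%, 32.1% and 30.4%). The shares over all protein-coding genes were close to these, at 22.7%, 21.0%, 31.6% and 32.0%.

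**Figure D3:**
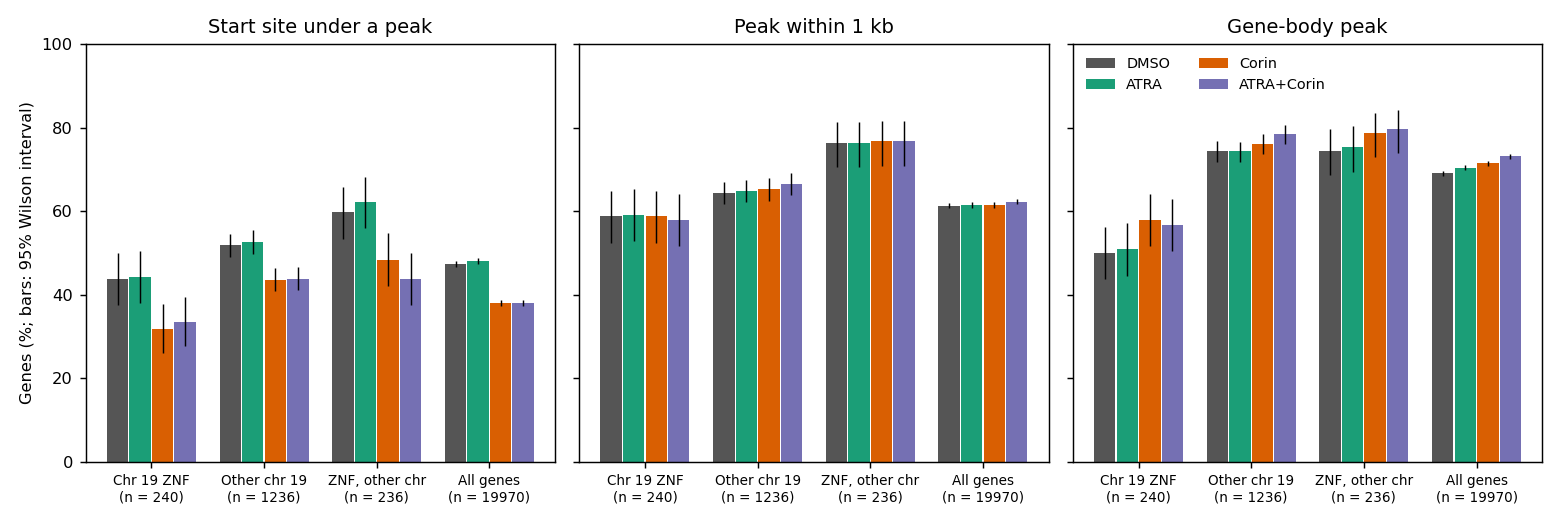
Bars give the percentage of genes with the start site under a peak, with a peak within 1 kb and with a gene-body peak, for the 240 members, the other genes of chromosome 19, the ZNF-numbered genes of other chromosomes and all protein-coding genes; error bars are 95% Wilson intervals. Start-site cover is lower in both lists with Corin in all 4 sets, the share with a peak within 1 kb is level, and gene-body peaks are rarer in the members (50.0% for DMSO) than in each other set.

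Counted gene by gene, cover of the start site was lost at 33 members with Corin against DMSO (13.8% of members) and at 35 with the combination (14.6%), where 11.6% and 11.9% of all genes were called. It was gained at 4 members with Corin and at 10 with the combination, where 2.31% and 2.68% of all genes were called. ATRA exchanged cover about equally, with 13 members lost and 14 gained, where 3.89% and 4.69% of all genes were called. Against ATRA alone, the combination lost cover at 31 members and gained it at 5, where 12% and 1.99% of all genes were called. Against Corin alone it lost 18 and gained 22, where 5.62% and 5.61% of all genes were called. The contrasts against DMSO share its list. Among genes covered in DMSO, the share uncovered with Corin was 31.4% of 105 members (23.3 to 40.8%) and 24.4% of all protein-coding genes. It was 20.9% of the other genes of chromosome 19 (18.0 to 24.3%) and 24.1% of the ZNF-numbered genes elsewhere (17.8 to 31.8%). For the same sets in this order, the shares were 33.3%, 25.2%, 21.6% and 29.8% with the combination. With ATRA they were 12.4%, 8.23%, 7.03% and 7.80%. Of genes covered with ATRA, the combination left uncovered 29.2% of members, 20.3% of the chromosome's other genes and 32.0% of the ZNF-numbered genes elsewhere. In these shares the members were thus not set apart from the ZNF-numbered genes elsewhere. Both lists with Corin left the start site uncovered at 19 members covered with DMSO (7.92%), where 7.45% of all genes were called. Cover in all 4 lists was found at 53 members (22.1%) and at 30.8% of all protein-coding genes. The members uncovered with Corin had a median −log10 q of 59.4 for the strongest DMSO peak within 1 kb, and the 72 that stayed covered had 75.1. Over all protein-coding genes these medians were 71.1 and 104, in the same order.

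The uncovered start sites lay in short gaps between flanking peaks. Of the 33 members uncovered with Corin, 31 had a peak within 1 kb on each side, and the median gap was 176 bp (114 to 440 bp). Of the 35 uncovered with the combination, 33 had one on each side, and the median gap was 191 bp (113 to 594 bp). The gap lay mostly upstream of the start site, reaching a median of 126 bp upstream and 45 bp downstream with Corin. Over all protein-coding genes the picture was much the same: 2212 of the 2307 uncovered with Corin had a peak on each side, and the median gap was 199 bp, reaching 145 bp upstream and 43 bp downstream. The 33 members had 42 peaks within 1 kb in the DMSO list and 65 in the Corin list. When peaks less than 1 kb apart were joined, cover was lost at 4 members with Corin and at 2 with the combination, and the share covered was 54.6% in both the DMSO and the Corin list. All the gaps above were shorter than 1 kb, so joining covered the start sites in them by construction. At 32 of the 33 members uncovered with Corin a peak remained within 1 kb, and ZNF283 was the exception.

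ZNF225 (19:44112181-44134822, plus strand) shows the gap clearly. Relative to its start site, 1 peak ran from -1226 to 1365 bp with DMSO and 1 from -1218 to 1424 bp with ATRA. With Corin the peaks ran from -1236 to -112 bp and from 17 to 1430 bp, and with the combination from -1500 to -182 bp and from 109 to 1682 bp. The flanks were kept, and a part of the promoter shown above lay in the gap. ZNF430 (19:21020634-21060050, plus strand) had a single DMSO peak from -572 to 1719 bp. In every drug list it had a pair of peaks, ending 152 bp before and starting 62 bp after the start site for ATRA, 112 and 88 bp for Corin, and 109 and 115 bp for ATRA+Corin. ZNF506 (19:19785839-19821751, minus strand) had the same pattern, with the downstream peak starting 5, 50 and 119 bp after the start site in the 3 drug lists. ZNF211 (19:57630395-57644041, plus strand) and ZNF417 (19:57900296-57916610, minus strand) were covered in the DMSO and ATRA lists and had 2 flanking peaks in both lists with Corin. ZNF649 (19:51889235-51905040, minus strand) differed in having no upstream peak within 1 kb, its only peak starting 86 bp downstream with Corin and 396 bp downstream with the combination. ZNF146 (19:36214602-36238771, plus strand), which shares its promoter with ZNF565 on the other strand, was covered with DMSO by a peak that began 20 bp before its start site, and with ATRA by 1 peak from -1851 to 1567 bp. The gap around it ended 113 bp downstream with Corin and 74 bp downstream with the combination. The start site of ZNF565 on that promoter stayed under a peak in all 4 lists.

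**Figure D4:**
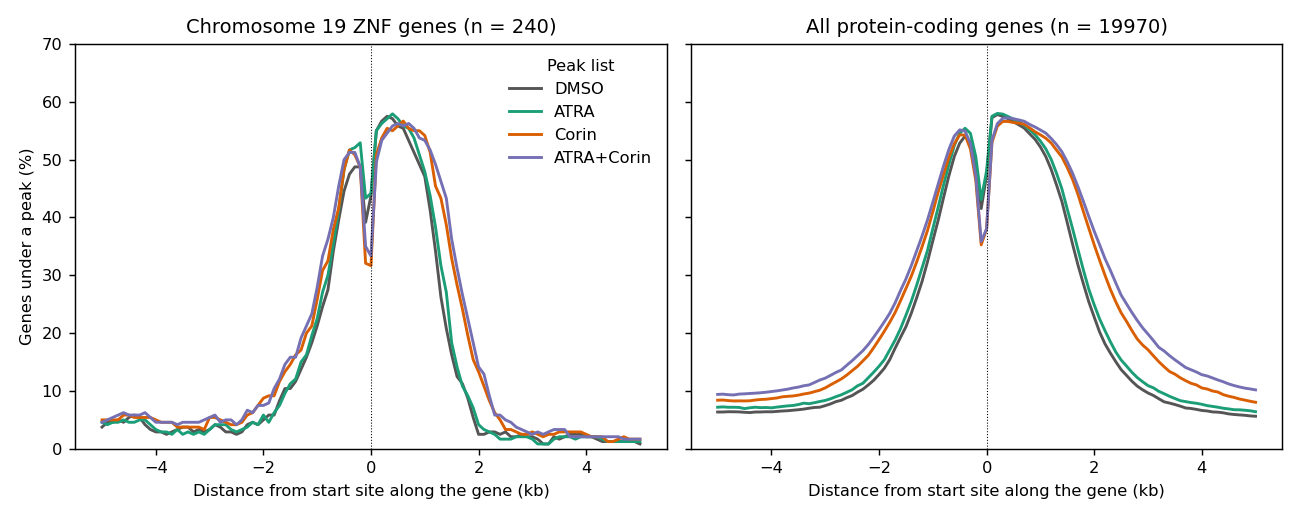
Lines give the percentage of genes under a peak at each distance from the start site, from 5 kb upstream to 5 kb downstream, for each list, in the 240 members and in all protein-coding genes. At the start site the members reach 43.8% for DMSO and 31.7% for Corin, and at 1.5 kb downstream 16.2% for DMSO and 32.9% for Corin. All protein-coding genes reach 47.3% and 38.0% at the start site, and 39.1% and 48.6% at 1.5 kb downstream.

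The outer edges of the marked promoters reached farther into the genes in the lists with Corin. Over the 139 members marked in all lists, the median downstream edge of the peaks that touch the 1 kb window lay at 1252, 1350, 1541 and 1628 bp. The edge lay farther downstream than in DMSO at 128 members with Corin and at 135 with the combination, where 84.2% and 85.1% of 12051 marked genes were called, and at 94 with ATRA, where 63.4% were called. The median member shift downstream was 36 bp with ATRA, 218 bp with Corin and 295 bp with the combination, and over all marked genes it was 46, 300 and 380 bp. The edge lay nearer than with DMSO at 45, 11 and 4 members in the 3 drug lists, where 36.3%, 15.7% and 14.7% of all marked genes were called. Most promoters thus reached farther into the gene with Corin, in the members and in all marked genes. Upstream, the median edge lay at -766, -860, -962 and -962 bp, and it lay farther out than with DMSO at 93, 113 and 116 members in the drug lists, where 64.5%, 78.3% and 82.2% were called. More peaks within 1 kb than with DMSO were found at 15, 43 and 37 members, where 7.43%, 20.4% and 20.9% were called, and fewer at 20, 8 and 11, where 10.9%, 5.09% and 5.33% were called. At 2 kb downstream, 2.5%, 4.17%, 13.3% and 14.2% of the 240 members were under a peak, so the extension reached this far in a minority. Over all protein-coding genes these shares were 22.8%, 24.9%, 35.3% and 37.6%. The marked span was shorter in the members, with a median of 2049 bp with DMSO and 2696 bp with the combination, compared with 2929 and 3710 bp over all marked genes. Lists also differ in peak width over the whole genome, as given above.

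**Figure D5:**
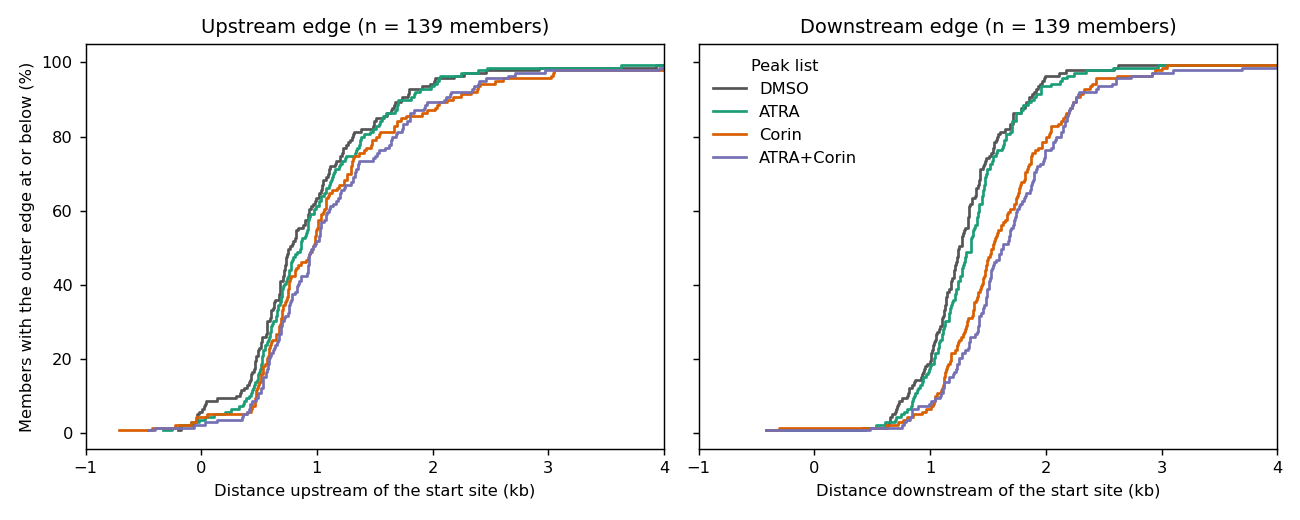
Cumulative curves give the percentage of the 139 members marked in all lists whose outer peak edge lies at or below a distance upstream (left) or downstream (right) of the start site, for each list; the axis ends at 4 kb. The Corin and ATRA+Corin curves lie to the right of the DMSO curve downstream, with medians of 1541 and 1628 bp against 1252 bp.

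Beyond the promoter a small share of the zinc finger genes' sequence was under H3K4me2 peaks. Gene bodies were counted from 1 kb past the start site to the gene's end, with a median length of 22057 bp. A gene-body peak was found in 120 members with DMSO (50.0%, 43.7 to 56.3%), 122 with ATRA, 139 with Corin (57.9%, 51.6 to 64.0%) and 136 with both drugs (56.7%, 50.3 to 62.8%). Over all protein-coding genes with a gene body this share was 69.0%, 70.4%, 71.4% and 73.1%. Peaks covered 1.26%, 1.45%, 2.01% and 2.27% of the members' gene-body bases, from 156, 156, 176 and 172 peaks with means of 510, 590, 723 and 834 bp inside the body. Over all protein-coding genes 2.78% of gene-body bases were covered with DMSO and 4.49% with the combination. These shares were 3.04% and 4.94% for the ZNF-numbered genes of other chromosomes, and 8.23% and 11.8% for the other genes of chromosome 19. The other genes of chromosome 19 had shorter gene bodies, with a median of 11633 bp. The median was 24113 bp for the ZNF-numbered genes of other chromosomes and 24999 bp for all protein-coding genes. The part of gene length in these shares, and in those of the last exon below, was not tested.

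Most of these gene-body peaks were the far ends of promoter peaks. In the DMSO list 113 of 156 also reached within 1 kb of the start site, and in the ATRA+Corin list 128 of 172. Against DMSO, 19 members gained a gene-body peak with Corin and none lost one, where 3.42% and 1.03% of all genes were called, and 16 gained and none lost one with the combination, where 4.75% and 0.647% were called. ATRA gained 7 and lost 5, where 2.41% and 1.02% were called. Fewer members than genes at large had a DMSO gene-body peak, so more could gain one. Of members without it, 5.83% gained one with ATRA, 15.8% (10.4 to 23.4%) with Corin and 13.3% (8.38 to 20.6%) with the combination. Of all genes without it, 7.77%, 11.1% and 15.3% did. Against ATRA alone the combination gained 14 and lost none, where 3.35% and 0.626% were called, and compared with the Corin list 2 members were added and 5 dropped, where 2.37% and 0.657% were called. All 7 members that gained a gene-body peak with ATRA were also among the 16 of the combination, and 6 of them among the 19 of Corin. Such overlap was common over all protein-coding genes. Of the 469 that gained one with ATRA, 309 had it in all drug lists and 94 with ATRA and the combination only. Another 14 had it with ATRA and Corin only, and 52 with ATRA only. The contrasts share the DMSO list, so a peak missing there alone counts as gained in each. In 16 of the 19 members new with Corin and in 14 of the 16 new with the combination the new peak reached within 1 kb of the start site. Counted from 2.5 kb past the start site, 21, 16, 22 and 28 members had a gene-body peak (8.75%, 6.67%, 9.17% and 11.7%). Gains and losses were then 7 and 6 members for Corin against DMSO, and 10 and 3 for the combination. Counts from 2.5 kb were not made over all protein-coding genes, so whether they are particular to the members is unknown. Of the 139 members marked in all lists, 115 had a DMSO gene-body peak, and of the 97 unmarked members 5 did. A start site of another protein-coding or lncRNA gene lay within 1 kb of 57 of the 156 DMSO gene-body peaks.

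The last exon, which usually encodes the fingers, was under a peak in 8 of 240 members with DMSO (3.33%, 1.70 to 6.44%) and in 7, 7 and 8 in the drug lists. Over all protein-coding genes with such an exon it was 11.3%, 11.9%, 12.3% and 14.0%, over the other genes of chromosome 19 it was 21.4% in DMSO, and over the ZNF-numbered genes of other chromosomes it was 8.15%. The members with a peak there, named after their values were seen, were ZNF579, ZNF524, ZNF784, ZNF580, ZNF581 and ZNF324 in every list. ZNF766 had one in every list but that of Corin, ZNF576 with DMSO and with the combination, and ZNF536 with Corin alone. In ZNF579, ZNF524, ZNF784, ZNF580 and ZNF581 the canonical transcript has 2 exons. No other member had a peak over the last exon in any list.

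The largest changes in covered gene-body length between DMSO and the combination were in ZNF507, ZNF577, ZNF586 and ZNF230. In ZNF507 (19:32345594-32387667, plus strand) 1253, 3623, 2945 and 4778 bp of the body were covered. The combination list had peaks there starting 5350, 16887 and 32110 bp from the start site, outside the canonical exons, the second of them with a −log10 q of 45.3. ZNF577 (19:51804816-51890950, minus strand), unmarked at its start site, had 7 gene-body peaks over 6281 bp in DMSO and 12 over 9417 bp with the combination. All of these peaks lay at least 57627 bp from that start site, past the last exon of its canonical transcript (19:51867048-51873706). Whether they belong to ZNF577 or to neighbouring genes was not tested. In ZNF586 (19:57769655-57819939, plus strand), also unmarked, 3343 bp were covered in DMSO and 5662 bp with the combination, in part near start sites of other genes. ZNF230 (19:44002957-44013924, plus strand) had 481 bp covered in DMSO, 662 bp with ATRA, 2697 bp with Corin and 2693 bp with the combination. There a single ATRA+Corin peak ran from 53 to 3693 bp past the start site, where the DMSO list had a peak ending at 1202 bp and a separate weak one. Losses were smaller: ZNF114 had 2323 bp covered in DMSO and 1605 bp with the combination, ZNF579 1147 and 868 bp, ZNF428 785 and 507 bp, and ZNF565 359 and 303 bp.

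Of 8 members chosen for their known roles, 4 had a marked start site. ZNF91, which represses SVA retrotransposons, had no peak in any list nearer than 120641 bp from its start site (19:23304991-23395471, minus strand) and none in its body. ZNF93, which represses LINE-1 elements, was marked in every list (19:19900913-19963464, plus strand). Its peaks were weak in the first 3 lists, with a −log10 q of 8.26, 12.7 and 8.74 for the strongest. Its start site lay 34, 55 and 80 bp from the nearest peak in the first 3 lists. With the combination it lay under a single peak from -752 to 1116 bp, at a −log10 q of 22.9. ZNF93 thus had cover only with the combination, as 1 of the 10 members that gained cover there against DMSO.

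ZNF274, which brings SETDB1 to the 3′ ends of other zinc finger genes, was covered in all 4 lists (19:58183029-58213562, plus strand). It had 1, 2, 3 and 3 peaks within 1 kb, and in both lists with Corin a short peak at the start site stood apart from both flanks. ZNF808, a gene needed for human pancreas development, kept 1 peak over its start site in every list (19:52527652-52564464, plus strand). Its ends moved little, from -952 and 1202 bp in DMSO to -979 and 1117 bp with ATRA, -1011 and 1125 bp with Corin and -936 and 1275 bp with the combination. ZNF224, a KRAB repressor (19:44094361-44109886, plus strand), was uncovered by 13 bp in the DMSO list and by 95 bp in the Corin list, and covered in the ATRA and ATRA+Corin lists. The remaining genes were unmarked at the canonical start site in every list: ZNF331, ZNF382, a KRAB repressor, and ZNF568. ZNF331 is an imprinted gene (19:53519527-53580269, plus strand), and in all 4 lists another of its annotated start sites, at -16289 bp, had a peak within 1 kb. Of the 97 unmarked members 5 had a marked alternative start site of this kind (also ZNF254, ZNF790, ZNF875 and ZNF28), all in every list, and 92 had none.

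Some members were covered far beyond the start site. ZNF653, ZNF101, ZNF546 and ZNF575 had the whole window of 1 kb on each side under peaks in the DMSO list, as did 15 members in all that were covered in every list. ZNF653 had 1 peak from -2188 to 1395 bp in DMSO, with a −log10 q of 155, and 1 from -2150 to 1506 bp with the combination. ZNF546 and ZNF575 also kept the whole window under peaks in every list, whereas ZNF101 had 1872 of its 2001 bases covered in the Corin list.

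The genes of the repressor machinery and of the CoREST enzymes were marked throughout. All 16 genes of this list had a peak within 1 kb and a gene-body peak in every list. Of all protein-coding genes, 60.3% had a peak within 1 kb in every list. A gene-body peak in every list was found at 67.2% of those with a gene body. The start site was covered in 14, 12, 8 and 7 of the 16, beside 47.3%, 48.1%, 38.0% and 38.0% of all protein-coding genes. Of the 14 covered with DMSO, 6 lost cover with Corin and 7 with the combination. Over all protein-coding genes covered with DMSO these shares were 24.4% and 25.2%, and the difference was not tested in so short a list. No gene of the list gained cover against DMSO, but only SETDB1 and CBX5 were uncovered there and could gain it. TRIM28, the co-repressor that KRAB domains bind, was covered in all lists, as were ATF7IP, TASOR, MORC2, KDM1A (LSD1) and HDAC2. SETDB1 and CBX5 were uncovered in all 4 lists. CBX3, an HP1 protein, lay 14 bp from the nearest peak with Corin and 19 bp with the combination, and RCOR1, which encodes CoREST, lay 19 and 10 bp from it. DAXX was likewise uncovered in both lists with Corin, ATRX and MPHOSPH8 in all 3 drug lists, PPHLN1 in the Corin list alone, and CBX1 and HDAC1 with the combination alone.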

How the data were processed

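H3K4me2 was measured in 8 libraries (2 per treatment) with 4 inputs (1 per treatment). Groups and replicate numbers came from the sample titles. The authors deposited 1 peak list per treatment, whose name describes peaks reproducible by overlap against input. Trimmomatic, Bowtie2, Picard, MACS2 and hg38 are named in the submitters' processing notes, with no versions or settings. Each peak has a deposited score (10 times the −log10 p, capped at 1000), a fold enrichment ratio over input, a −log10 p and a −log10 q, all the authors' values, used here only to describe, rank or filter peaks. The lists give no depth.

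Start sites, gene ends and exons were read from GENCODE release 44 (canonical transcripts of 19970 protein-coding genes) and coordinates are on GRCh38, counted from 1. A start site was covered when its base lay under a peak; overlaps of 1 bp counted elsewhere. Peaks were counted within 1 kb of the start site and from 1 kb past it to the gene's end. Computation used Python 3.11.15, numpy 2.4.6 and pandas 2.3.3, checked on simulated peaks with known positions. The planned protein features were not used here, and a planned marker list is not reported here. The members and lists were chosen with earlier results of these data known. Named genes were, by rule: up to 8 members covered in DMSO and in neither list with Corin, farthest from an ATRA+Corin peak; up to 6 that gained and up to 6 that lost a peak within 1 kb; the 4 largest gains and the 4 largest losses of gene-body cover; 8 known genes; and 4 covered in every list. Other genes named are stated as such or belong to fixed lists.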

Additional observations from a re-analysis of the deposited data

How the results depend on the processing

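No paired analysis was possible because each treatment has 1 pooled list and the columns carry no replicate number, and for the same reason no replicate could be left out. Of 259 recomputed values, 216 stayed within the Wilson interval of the reported share or within 1.5 times the reported count. All of them did with windows of 500 bp or 2.5 kb, with 50% of 200 bp at the start site covered, and with the 207 members that have no other protein-coding start site within 1 kb. The alternatives for outer edges and last exons were added after the data were examined, and none of those values moved. With peaks under 1 kb apart joined, start-site cover was 54.6%, 55.4%, 54.6% and 56.2% (order DMSO, ATRA, Corin, ATRA+Corin, here and below). Against DMSO, cover was then lost at 2, 4 and 2 members in the drug lists, and gained at 4 with ATRA and 6 with both drugs. The combination lost cover at 2 members against ATRA and 1 against Corin, and gained it at 5 against Corin. With any annotated start site, cover was 39.2% for Corin and 41.2% for ATRA+Corin. With gene bodies from 2.5 kb, 8.75%, 6.67%, 9.17% and 11.7% of members had a gene-body peak, 0.477%, 0.584%, 0.645% and 0.790% of bases were covered, and 7 members changed for ATRA against DMSO. With at least 50% of the peak inside the gene body, the shares were 10.8%, 10.8%, 18.3% and 20.0%, with 0.528%, 0.632%, 1.05% and 1.29% of bases, and 36 members changed for Corin and 32 for ATRA+Corin against DMSO, and 28 and 20 for the combination against ATRA and Corin. With a −log10 q of at least 5, a peak within 1 kb changed at 4 members for Corin and 4 for ATRA+Corin against DMSO, 0 for the combination against ATRA and 4 against Corin, and the combination gained cover at 3 members against ATRA. With the same number of peaks in every list, a peak within 1 kb changed at 1 member between ATRA and DMSO and at 1 between both drugs and ATRA, where cover was gained at 3. Library depth is not given by the lists, which limits how far shares of covered start sites and peak widths can be compared between them.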
